A study of Mus musculus with 4 samples.

Results

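De novo lipogenesis genes were examined in 4 bulk mRNA-seq libraries of mouse liver. The members are *Srebf1*, *Mlxipl*, *Acly*, *Acaca*, *Fasn*, *Elovl6*, *Scd1*, *Me1*, *Thrsp* and *Pnpla3*, picked by gene name, with earlier results of these data known. Of these 10 genes, 9 were measured among 13903 genes, and *Pnpla3* was not analysed here. All mice were OGT-floxed on the C57BL/6J background and received the choline-deficient, ethionine-supplemented (CDE) diet, a model of liver injury. Mice labelled OGT-KO had been given AAV8-TBG-CRE, and mice labelled control AAV8-TBG-eGFP. The TBG promoter drives the virus in hepatocytes, so other liver cells keep an intact *Ogt*, the gene of O-GlcNAc transferase. Livers were taken without recovery from the diet, or 7 days into recovery. A condition was 1 library of equally pooled RNA from 3 mice. No value therefore has a replicate error, and no test between conditions was possible. The age and sex of these mice and the length of the diet are not given in the sources used here.

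De novo lipogenesis builds fatty acids from sugar and amino acid carbon, and in the liver it follows feeding and insulin. ATP citrate lyase (*Acly*) cuts exported citrate into acetyl-CoA, acetyl-CoA carboxylase (*Acaca*) makes malonyl-CoA, and fatty acid synthase (*Fasn*) assembles palmitate with NADPH from sources that include malic enzyme (*Me1*). *Elovl6* then lengthens palmitate, and *Scd1* places the double bond that turns saturated into monounsaturated fatty acids. The genes are driven by the transcription factors SREBP-1 (*Srebf1*), which responds to insulin, and ChREBP (*Mlxipl*), which responds to carbohydrate. *Thrsp* encodes Spot 14, a small lipogenic protein induced by thyroid hormone and carbohydrate. In the GRCm38 annotation the measured genes are *Srebf1* (ENSMUSG00000020538) on chromosome 11, *Mlxipl* (ENSMUSG00000005373) on chromosome 5, *Acly* (ENSMUSG00000020917) on chromosome 11, *Acaca* (ENSMUSG00000020532) on chromosome 11, *Fasn* (ENSMUSG00000025153) on chromosome 11, *Elovl6* (ENSMUSG00000041220) on chromosome 3, *Scd1* (ENSMUSG00000037071) on chromosome 19, *Me1* (ENSMUSG00000032418) on chromosome 9 and *Thrsp* (ENSMUSG00000035686) on chromosome 7.

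Values are CPM, read counts scaled to 1000000 reads per library, and the libraries held 19972699 to 22866431 reads on the listed genes. Differences are on the log2(CPM + 1) scale as labelled OGT-KO minus labelled control. A gene was called higher or lower at a 2-fold difference. *Ogt* itself had 64.7 CPM in the control-labelled library and 55.3 in the OGT-KO-labelled library without recovery, but 55.7 and 77.7 after 7 days. The whole-gene value thus went against the label at the later time point, although its difference of 0.47 turned to -0.20 with median-ratio scaling. *Oga*, whose product removes O-GlcNAc, was not called, at -0.31 and -0.30. Each direction given here is a direction between labels. Over the 8963 genes whose mean reached 10 CPM, the median difference between labels was 0.51 without recovery and 0.48 after 7 days. Values are also given less this median, because another scaling of the libraries moves all genes together.

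Markers of several other liver cells moved with the label. The summed CPM of 7 stellate cell markers was 126 and 92.2 in the control-labelled libraries, without recovery and after 7 days. In those labelled OGT-KO it was 2928 and 3767. All 7 were called higher at both time points, as were 19.2% of all compared genes. *Acta2*, *Des* and *Lrat* among them reached the mean of 10 CPM only through the OGT-KO-labelled libraries. Sums over 8 macrophage markers were 170 and 65.4 against 650.2 and 494. Sums over 6 bile duct markers were 53.7 and 69.6 against 1149 and 1458. Sums over 6 endothelial markers were 238 and 159 against 474 and 350.3. Of the 6, 3 were called higher without recovery and 2 after 7 days, against 24.4% and 22.9% of all compared genes. Median-ratio scaling left 0 and 2 of the 6, and 10.4% and 11.6% of all genes. The 3 lymphocyte markers measured stayed under 5 CPM in sum in each library, and 0 reached the mean of 10 CPM. The 9 hepatocyte markers summed to 84921 and 95671 CPM against 58285 and 69437, and 4 of 9 were called lower at each time point. With median-ratio scaling 7 were lower without recovery and 6 after 7 days. Of all compared genes, 5.69% and 4.27% were lower, or 15.4% and 11.8% with that scaling. The part of these shifts in the lipogenic values was not tested. In bulk RNA, fewer hepatocytes and less RNA per hepatocyte cannot be told apart.

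The lipogenic genes did not move as a block. Without recovery, 4 of 9 genes were called lower in the OGT-KO-labelled library (*Srebf1*, *Mlxipl*, *Scd1* and *Thrsp*) and 0 were called higher, where 5.69% of all compared genes were lower, 24.4% higher and 30.1% either. After 7 days, 3 of 9 were called lower (*Mlxipl*, *Scd1* and *Thrsp*) and 0 higher, against 4.27% and 22.9% of all genes, or 27.1% in either direction. These 3 were lower at both time points, as were 3.74% of all genes, while 19.2% were higher at both. All 9 members had a mean of at least 50 CPM. Of all genes at that level, 10.9% and 8.73% were lower and 16.3% and 15.6% higher. With median-ratio scaling 5 of 9 were lower at each time point, against 15.4% and 11.8% of all compared genes. The median difference of the 9 genes was -0.59 without recovery and -0.35 after 7 days, and the range ran from -3.12 to 0.72 and from -3.03 to 0.97. Together the 9 genes took 0.605% and 0.692% of the reads in the control-labelled libraries, against 0.206% and 0.275% in those labelled OGT-KO. Most of that gap was *Scd1*: without it the sums were 1691 and 1781 CPM in the control-labelled libraries against 1186 and 1361.

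**Figure D1:**
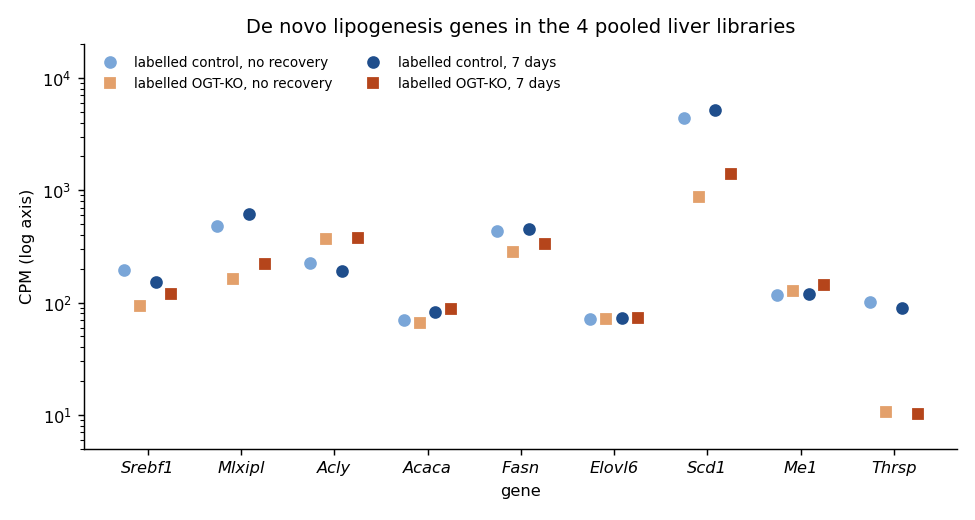
CPM of the 9 measured lipogenesis genes in each of the 4 pooled liver libraries, on a log axis (circles, labelled control; squares, labelled OGT-KO; light, no recovery; dark, 7 days). For *Mlxipl*, *Scd1* and *Thrsp* the square lies far below the circle of the same time point, and for *Acly* above it. For *Elovl6* all 4 points lie between 71.5 and 72.9 CPM.

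Among the transcription factors, *Mlxipl* had 485 and 620.0 CPM in the control-labelled libraries, without recovery and after 7 days. It had 163 and 219 CPM in the OGT-KO-labelled libraries. The differences were -1.57 and -1.50 (95% counting intervals of the log2 ratio, -1.63 to -1.52 and -1.55 to -1.45). *Srebf1* had 194 and 151 CPM in the control-labelled libraries against 92.4 and 118 in those labelled OGT-KO. For *Srebf1* the labels lay closer together after 7 days. Its difference was -1.06 (-1.14 to -0.99) without recovery, past 2-fold, and -0.35 (-0.43 to -0.28) after 7 days, short of it. The first lay close to the threshold, and with a pseudocount of 10 it was -0.99 and no longer called. Less the median of all genes, these were -1.57 and -0.83, and with median-ratio scaling *Srebf1* was past 2-fold at both time points, at -1.77 and -1.03. *Srebf1* makes an SREBP-1a and an SREBP-1c transcript, which a gene-level value does not separate.

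*Scd1* was the most abundant member. It had 4363 CPM in the control-labelled library without recovery and 5136 after 7 days. The OGT-KO-labelled libraries had 869 and 1389.6 CPM, 5.02-fold and 3.70-fold less. The differences were -2.33 (-2.35 to -2.31) and -1.89 (-1.90 to -1.87). Ordered from the most lowered of the 8963 genes, *Scd1* stood at place 123 without recovery and 99 after 7 days. *Scd1* made up 72.1% and 74.3% of the reads of the 9 genes in the control-labelled libraries, and 42.3% and 50.5% in those labelled OGT-KO. Per kilobase of exon it stood at 892 and 1050 CPM against 178 and 284, and it was the highest of the 9 in each library on that scale.

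*Thrsp* had the lowest ratio of the 9. It had 101 and 90.2 CPM in the control-labelled libraries and 10.7 and 10.2 in those labelled OGT-KO. The 2 libraries of each label lay close together, and the labels were 9.43-fold and 8.85-fold apart. The differences were -3.12 and -3.03, and the intervals of the log2 ratio were -3.44 to -3.05 and -3.35 to -2.95. *Thrsp* stood at place 63 from the most lowered gene without recovery and at 38 after 7 days.

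*Fasn* was lower by less. It had 431 and 453 CPM in the control-labelled libraries against 285 and 331 in those labelled OGT-KO. Its differences of -0.59 (-0.64 to -0.55) and -0.45 (-0.50 to -0.41) were not past 2-fold. Less the median of all genes they were -1.10 and -0.93, and with median-ratio scaling -1.31 and -1.14, past 2-fold at both time points.

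In CPM, *Acly* ran the other way, and it was the highest-ranked member in both comparisons. It had 225 and 192 CPM in the control-labelled libraries and 371 and 377 in those labelled OGT-KO. The differences were 0.72 (0.67 to 0.77) and 0.97 (0.92 to 1.03), not past 2-fold. Less the median of all genes they came to 0.21 and 0.50, and with median-ratio scaling to 0.0012 and 0.29. Without recovery the labels were thus level for *Acly* under that scaling, and the size of its difference depended on the scaling. A ratio of reads within a library does not depend on scaling. There were 191 *Fasn* reads per 100 *Acly* reads in the control-labelled library without recovery and 237 after 7 days, against 76.8 and 87.9 in the OGT-KO-labelled libraries. *Acaca* reads per 100 *Acly* reads were 30.9 and 42.6 against 17.8 and 23.4. Along the pathway from *Acly* to *Acaca* and *Fasn*, the balance between the genes thus differed between the labels at both time points.

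*Acaca*, *Elovl6* and *Me1* had close values in all 4 libraries. *Elovl6* had 71.5 and 72.9 CPM in the control-labelled libraries and 71.5 and 72.5 in those labelled OGT-KO, with intervals of the log2 ratio from -0.10 to 0.10 and from -0.11 to 0.09. *Acaca* had 69.6 and 81.6 CPM against 66.0 and 88.2, differences of -0.07 (-0.18 to 0.03) and 0.11 (0.02 to 0.21). *Me1* had 116 and 120.3 CPM against 127 and 144, differences of 0.14 (0.06 to 0.22) and 0.26 (0.18 to 0.34). Their level hangs on the scaling: less the median of all genes, *Elovl6* was at -0.51 and -0.49, *Acaca* at -0.58 and -0.37 and *Me1* at -0.37 and -0.22. With median-ratio scaling *Me1* turned to -0.58 and -0.42, and *Acaca* after 7 days to -0.57, and both signs turned under the other two scalings as well. Of the stretches of 50 bases in their annotated transcripts, 30.4% of those of *Acaca* and 28.3% of those of *Me1* also occurred in another gene, mostly a pseudogene, so these counts are less certain. For the other members this share was at most 4.56%.

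**Figure D2:**
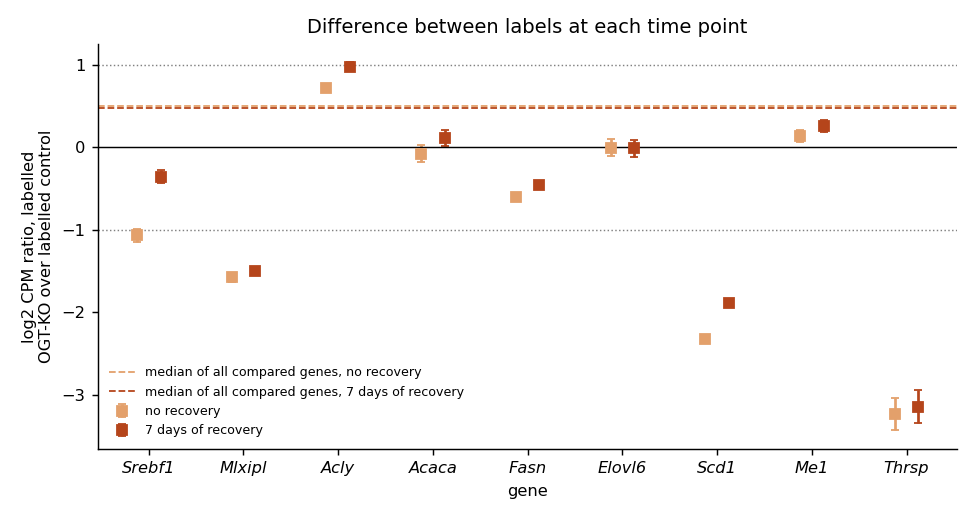
Log2 ratio of CPM, labelled OGT-KO over labelled control, of the 9 genes without recovery (light) and after 7 days (dark); bars are 95% intervals for counting error only, dotted lines mark 2-fold, and dashed lines mark the median log2(CPM + 1) difference of all 8963 genes. *Thrsp*, *Scd1* and *Mlxipl* lie below the lower dotted line at both time points, and *Acly* alone lies above the dashed lines.

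SREBP-1 works on promoters together with the CCAAT-binding factor NF-Y, and the stretch before the start site was therefore read. *Fasn*, printed among the genes not called, was lower in CPM but short of 2-fold. RefSeq promoter windows (GRCm38.p6) were matched for 8 of the 9 genes, all but *Scd1*, which gave 12 windows because some genes have several starts. The 250 bases before the start are printed for *Thrsp* (chr7:97417551-97417800, minus strand) and *Mlxipl* (chr5:135089640-135089889, plus strand), lower at both time points, and for *Fasn* (chr11:120824548-120824797, minus strand) and *Acly* (chr11:100528001-100528250, minus strand), not called. Capitals mark CCAAT or its reverse complement ATTGG.
Thrsp: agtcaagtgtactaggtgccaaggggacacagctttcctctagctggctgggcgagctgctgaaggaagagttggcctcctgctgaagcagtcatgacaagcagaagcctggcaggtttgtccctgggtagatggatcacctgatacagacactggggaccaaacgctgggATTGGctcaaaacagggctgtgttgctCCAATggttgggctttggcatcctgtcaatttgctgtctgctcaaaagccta
Mlxipl: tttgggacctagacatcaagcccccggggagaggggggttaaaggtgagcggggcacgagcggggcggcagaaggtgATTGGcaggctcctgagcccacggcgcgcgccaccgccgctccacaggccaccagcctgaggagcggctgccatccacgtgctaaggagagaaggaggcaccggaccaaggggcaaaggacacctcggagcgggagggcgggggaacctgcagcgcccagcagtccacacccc
Fasn: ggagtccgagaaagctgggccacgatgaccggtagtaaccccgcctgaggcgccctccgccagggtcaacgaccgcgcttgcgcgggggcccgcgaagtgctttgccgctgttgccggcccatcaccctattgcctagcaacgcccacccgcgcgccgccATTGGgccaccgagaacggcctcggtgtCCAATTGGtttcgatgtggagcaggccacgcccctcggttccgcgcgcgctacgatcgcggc
Acly: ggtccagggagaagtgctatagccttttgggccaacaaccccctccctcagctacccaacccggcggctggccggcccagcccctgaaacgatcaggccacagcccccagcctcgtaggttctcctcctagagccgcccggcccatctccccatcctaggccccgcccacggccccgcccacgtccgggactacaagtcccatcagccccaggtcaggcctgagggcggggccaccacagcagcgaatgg
CCAAT on either strand was found in 6 of the 12 windows, of *Fasn*, *Me1*, *Mlxipl*, *Srebf1* and *Thrsp*, and in 33.8% of all 32851 windows. *Fasn* held 3 matches, 2 of which overlapped, and *Thrsp* held 2. The E-box CACGTG, the core of ChREBP sites, was found in 1 of the 12 windows, that of *Mlxipl* printed here, and in 6.02% of all windows. TCACCC, part of sterol response elements, was in 3 of the 12 windows (*Fasn*, *Me1* and *Srebf1*) and in 13.8% of all. The GC box GGGCGG was in 5 of the 12 (*Acly*, *Me1*, *Mlxipl* and *Srebf1*) and in 32.7% of all. The longer sterol response element and the TATA box TATAAA were in none of the 12, against 0.0731% and 12.4% of all windows. The other *Mlxipl* window, not printed here, held none of these motifs. The CCAAT-bearing windows came from genes called lower and from genes not called. Of the NF-Y subunits, *Nfya* was higher at both time points, at 10.2 and 8.81 CPM in the control-labelled libraries against 33.3 and 27.1. It reached the mean of 10 CPM only through the OGT-KO-labelled libraries. *Nfyb* and *Nfyc* were not called. With median-ratio scaling *Nfya* was at 0.93 and 0.88, short of 2-fold.

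Several members have a relative that does similar work. Of 10 such genes, 3 were called higher and 3 lower without recovery, and 3 and 1 after 7 days. Of all compared genes 24.4% were higher and 5.69% lower, and 22.9% and 4.27% after 7 days. With median-ratio scaling the 10 genes gave 2 and 5, and 2 and 4, and all genes 10.4% and 15.4%, and 11.6% and 11.8%. Both genes that stayed higher, *Scd2* and *Me2*, reached the mean of 10 CPM only through the OGT-KO-labelled libraries. *Scd2*, a stearoyl-CoA desaturase found mainly outside the adult hepatocyte, had 6.82 and 5.46 CPM in the control-labelled libraries and 171 and 169 in those labelled OGT-KO, differences of 4.46 and 4.72. *Scd1* carried 99.7% and 99.8% of the reads on *Scd1*, *Scd2* and *Scd3* in the control-labelled libraries, and 82.4% (exact interval 81.9 to 82.9) and 88.9% (88.6 to 89.2) in those labelled OGT-KO. Between 3.97% and 6.57% of the 50-base stretches of these 3 genes are shared, so a small part of the reads could sit on the wrong one. *Me2*, the mitochondrial malic enzyme, had 1.32 and 1.05 CPM against 22.9 and 18.9, while *Me1*, the cytosolic one, was not called. *Acacb*, whose malonyl-CoA restrains fatty acid oxidation, had 94.6 and 112 CPM against 32.5 and 48.9, differences of -1.51 and -1.18. *Acaca* thus took 42.4% and 42.1% of the reads on both carboxylases in the control-labelled libraries and 67.0% and 64.3% in those labelled OGT-KO.

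*Mlxip*, the ChREBP relative MondoA, had 11.8 and 10.2 CPM against 26.2 and 22.1, differences of 1.09 and 1.05 that shrank to 0.41 and 0.41 with median-ratio scaling. *Mlxipl* remained the main one, with 97.6% and 98.4% of the reads on both against 86.1% and 90.8%. *Mid1ip1*, the relative of *Thrsp*, had 49.5 and 48.3 CPM against 30.6 and 29.9, differences of -0.68 and -0.67. With median-ratio scaling it was past 2-fold lower at both time points. *Thrsp* took 67.0% and 65.1% of the reads on both against 25.8% and 25.4%. Of the 50-base stretches of *Mid1ip1*, 20.9% occur in another gene, so its count and this share are less certain. *Srebf2*, which drives cholesterol synthesis, had 80.1 and 78.6 CPM against 80.2 and 105 and was not called. *Acss2*, which makes acetyl-CoA from acetate, had 166 and 206 CPM against 70.2 and 107, and was called lower without recovery. *Elovl5*, an elongase of polyunsaturated fatty acids, had 256 and 347 CPM against 124 and 232, also called lower without recovery. *Oxsm*, of mitochondrial fatty acid synthesis, was not called, at -0.33 and -0.10. *Pnpla2*, a lipase, was not called either, at 0.41 and -0.11.

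**Figure D3:**
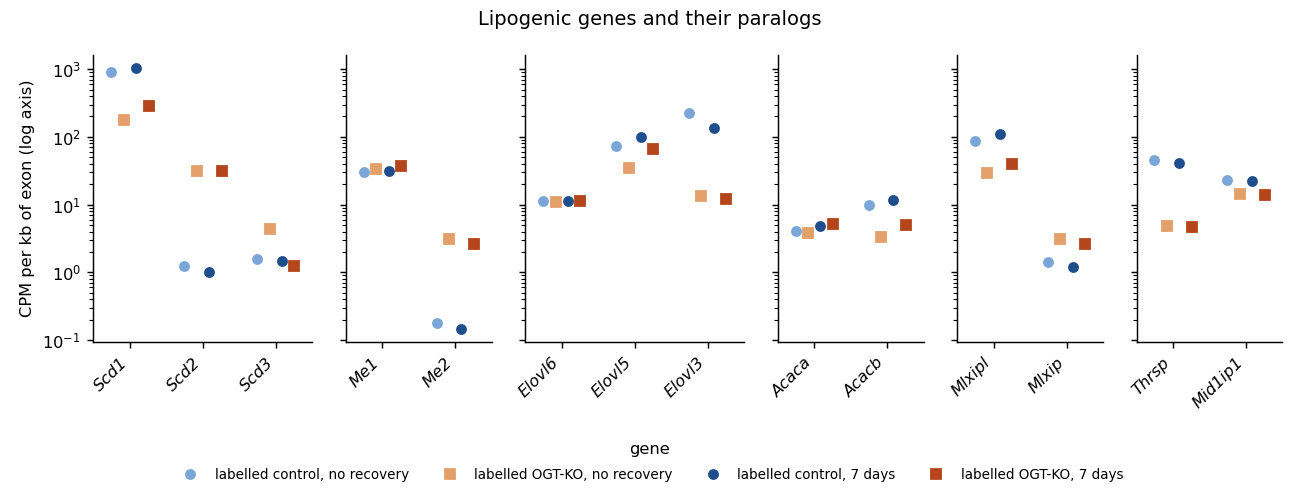
CPM per kilobase of exon, on a log axis, of lipogenesis genes beside related genes in the 4 libraries (circles, labelled control; squares, labelled OGT-KO; light, no recovery; dark, 7 days). The squares of *Scd2* lie near 31 against about 1 for the circles, while those of *Scd1* lie at 178 and 284 against 892 and 1050; all 4 points of *Elovl6* coincide while those of *Elovl3* part.

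The carbon that feeds the pathway leaves the mitochondrion as citrate, made from pyruvate by way of acetyl-CoA. Of 13 genes for citrate and acetyl-CoA supply, 3 were called lower and 1 higher without recovery, and 2 and 1 after 7 days, with median differences of -0.24 and -0.23. With median-ratio scaling 6 were lower and 1 higher, and 5 and 1 after 7 days. The shares of all compared genes in CPM were 5.69% lower and 24.4% higher, and 4.27% and 22.9% after 7 days. That scaling made these 15.4% and 10.4%, and 11.8% and 11.6%. *Pdk4*, an inhibitor of pyruvate dehydrogenase, was higher at 2.13 and 2.97 and reached 10 CPM only through the OGT-KO-labelled libraries, while *Pdk1* was lower at -1.92 and -1.36. The citrate carrier *Slc25a1*, which hands citrate to *Acly*, had 277 and 261 CPM against 293 and 244 and was not called. *Slc25a1* lies outside the naming rule and was chosen after its values were seen.

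Of 11 ChREBP partners and targets compared, 3 were called lower and 3 higher without recovery, and 2 and 3 after 7 days. With median-ratio scaling 6 were lower and 0 higher, and 5 and 0 after 7 days. The shares of all compared genes in CPM were 5.69% lower and 24.4% higher, and 4.27% and 22.9% after 7 days. The 3 higher genes of 11 were thus near the share of all genes. Median-ratio scaling made the shares 15.4% and 10.4%, and 11.8% and 11.6%. *Pklr*, liver pyruvate kinase, was at -3.04 and -2.47, and *Khk*, which starts fructose metabolism, at -1.81 and -1.40. *Txnip*, also a ChREBP target, was at 1.35 and 1.58, or 0.64 and 0.91 with median-ratio scaling. Of 14 genes for the control of SREBP, 1 was called lower (*Insig1*) and 2 higher without recovery, and 0 and 1 after 7 days. The higher genes, *Mbtps2* and at both time points *Nfya*, reached 10 CPM only through the OGT-KO-labelled libraries. The balance turned with median-ratio scaling, where 3 were lower (*Insig1*, *Scap* and *Rxra*) and 0 higher at both time points. *Insig1*, itself a target of SREBP that holds it in the endoplasmic reticulum, had 300.2 and 251 CPM against 93.7 and 155. Its differences of -1.67 and -0.69 shrank with recovery, like those of *Srebf1*.

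The calls in NADPH supply depended on the scaling. At equal totals, of 9 genes compared, 4 were called higher and 0 lower at each time point, with median differences of 0.22 and 0.16. Of all compared genes 24.4% and 22.9% were then higher, and 5.69% and 4.27% lower. With median-ratio scaling 10.4% and 11.6% of all genes were higher, and 15.4% and 11.8% lower. *Me2* was at 3.36 and 3.28, counted here as a malic enzyme whose cofactor was not examined. With it *G6pdx*, the first enzyme of the pentose phosphate pathway (2.78 and 2.63), led the list. Both reached the mean of 10 CPM only through the OGT-KO-labelled libraries, so their calls were set in part by the filter. The other two, named after their values were seen, were *Pgd* of the same pathway (3.02 and 2.57) and *Tkt* (1.04 and 1.28). With median-ratio scaling *Tkt* was at 0.32 and 0.60, short of 2-fold. Then 3 genes of the list lay past 2-fold in the lower direction at both time points: *Mthfd1* (-1.65 and -1.24), *Idh1* (-1.44 and -1.23) and *Aldh1l1* (-1.32 and -1.18, named after its values were seen), enzymes that make NADPH from folate carbon or isocitrate. Of the 50-base stretches of *G6pdx*, 16.9% occur in other genes, so its value is less certain.

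Of 10 genes that set or sense malonyl-CoA, 2 were called lower and 4 higher without recovery, and 2 and 2 after 7 days. With median-ratio scaling 5 were lower and 1 higher, and 4 and 1 after 7 days. For this list and the next, the shares of all compared genes in CPM were 5.69% lower and 24.4% higher, and 4.27% and 22.9% after 7 days. Median-ratio scaling made the shares 15.4% and 10.4%, and 11.8% and 11.6%. *Mlycd*, which degrades malonyl-CoA, was lower with *Acacb*, at -1.52 and -1.12, and *Prkab2*, a subunit of the kinase AMPK that inhibits acetyl-CoA carboxylase, was higher, at 2.30 and 2.08, but reached 10 CPM only through the OGT-KO-labelled libraries. Of 12 other elongases and desaturases, 4 were called lower and 2 higher without recovery, and 2 and 2 after 7 days. With median-ratio scaling 6 were lower and 2 higher, and 5 and 2 after 7 days. Both higher genes, *Scd2* and *Elovl7*, reached 10 CPM only through the OGT-KO-labelled libraries. *Elovl3*, an elongase of saturated fatty acids, had 438 and 264 CPM against 26.2 and 24.2, differences of -4.01 and -3.39 that set it apart from *Elovl6*. *Fads1*, a desaturase of polyunsaturated fatty acids, was at -1.86 and -1.44, and *Elovl7* had 0.141 and 0.451 CPM in the control-labelled libraries, the first from 3 reads, against 28.4 and 14.7. The counting interval of its log2 ratio was 6.10 to 9.94 without recovery.

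**Figure D4:**
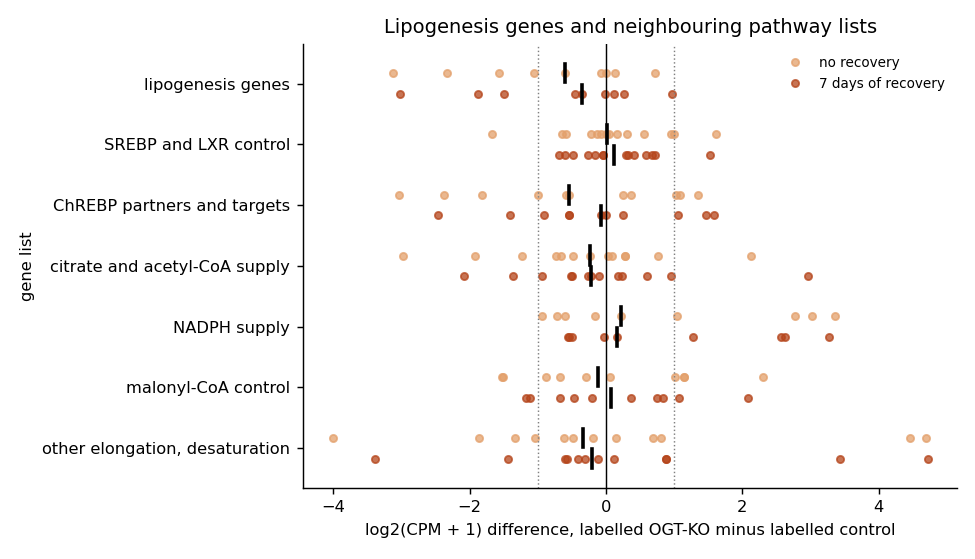
Differences between labels on the log2(CPM + 1) scale for the 9 lipogenesis genes and for each gene past 10 CPM in 6 neighbouring pathway lists (light, no recovery; dark, 7 days; black bars, medians; dotted lines, 2-fold). The lipogenesis genes spread from -3.12 to 0.97, and the NADPH list has 4 points right of 2-fold at each time point and none left of it at equal totals, where median-ratio scaling puts 3 to the left.

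The recovery comparison asked how far the genes moved over 7 days within each label, and it shares its libraries with the comparison of labels. None of the 9 genes was past 2-fold in either label, nor were most genes: in the control-labelled libraries 0.245% of all compared genes were past it in the higher and 0.96% in the lower direction (1.2% in either), and in those labelled OGT-KO 1.04% and 0.435% (1.47%). In the control-labelled libraries, 6 of 9 values lay above and 3 below no recovery, from -0.35 for *Srebf1* to 0.35 for *Mlxipl*. In the OGT-KO-labelled libraries, 8 of 9 lay above and *Thrsp* at -0.06 below, and *Thrsp* turned to 0.0067 with median-ratio scaling. *Scd1* had the widest step, 0.68 (0.65 to 0.70), place 274 from the highest of 8963 genes, against 0.24 (0.22 to 0.25) in the control-labelled libraries. *Mlxipl* was higher after 7 days in both labels, by 0.35 and 0.43. *Thrsp* and *Elovl6* stayed within 0.16 of their starting values in both.

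The difference between labels moved nearer to 0 after 7 days for *Srebf1* and *Scd1*, and by less for *Fasn* and *Mlxipl*. The later less the earlier difference was above 0 for 8 of the 9 genes and below 0 for 1. This value was 0.71 (counting interval 0.61 to 0.82) for *Srebf1* and 0.44 (0.41 to 0.47) for *Scd1*. For *Fasn* it was 0.14 (0.08 to 0.21) and for *Mlxipl* 0.07 (0.0014 to 0.15). The value was 0.26 for *Acly*, whose difference widened, and lay between -0.0080 and 0.18 for the other genes. None of the 9 was past 2-fold, as 2.73% of all genes were. For *Thrsp* the interval of this value, -0.18 to 0.37, held 0, and for *Elovl6* it was -0.15 to 0.14. These intervals cover counting error and not the spread between mice.

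**Figure D5:**
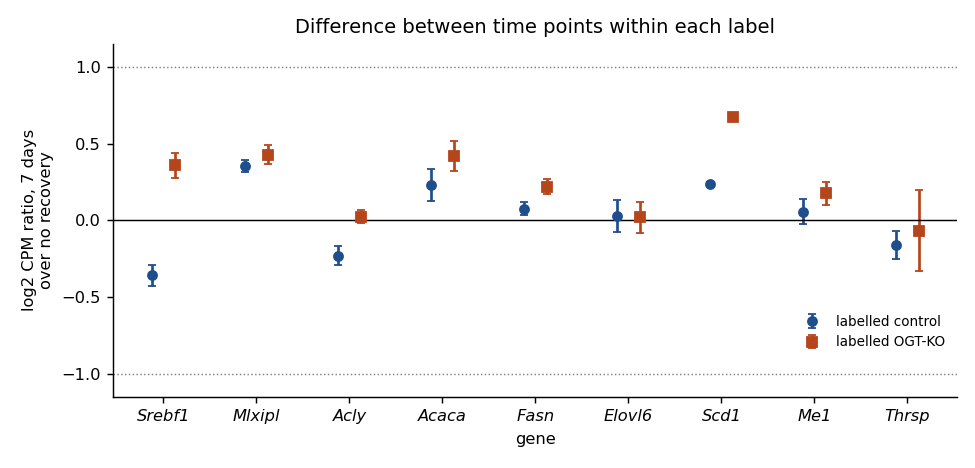
Log2 ratio of CPM, 7 days over no recovery, of the 9 genes in the control-labelled libraries (circles) and labelled OGT-KO (squares), with 95% intervals for counting error only; dotted lines mark 2-fold. All points lie between the dotted lines, and *Srebf1* lies at -0.35 and 0.35 in the 2 labels.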

How the data were processed

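Bulk mRNA-seq was carried out on liver RNA of 4 conditions, 1 library each. The authors deposited CPM, read counts scaled to 1000000 per library over the listed genes, in a table named for DESeq2 normalization. STAR, DESeq2 and GRCm39 are named in the submitters' processing notes. The counter and the gene filter are not given in the sources used here. The values were 100.0% whole multiples of the value of 1 read (within 0.05 reads), so reads were recovered and gave exact 95% intervals, which cover counting error only. A count of 0 allows up to 3 reads, or 0.131 to 0.150 CPM.

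Genes were compared at a mean of at least 10 CPM (8963 genes) as differences of log2(CPM + 1), which understate low genes. All 9 measured members passed. Testing the reads of each pair of libraries with an exact binomial test, which says nothing of the spread within a condition, gave an adjusted p under 0.05 (Benjamini-Hochberg) for 8011 and 7899 genes between labels and 3524 and 5048 between time points. The members and lists were chosen with earlier results of these data known. Named were all members, their paralogs, *Ogt* and *Oga*, and of each list the 2 genes with the largest difference in each direction at both time points. Named outside this rule were *Slc25a1*, *Pgd*, *Tkt*, *Aldh1l1*, *Mbtps2*, *Scap*, *Nfyb*, *Nfyc*, *Abca1*, *Scd3*, *Acta2*, *Des* and *Lrat*. Some genes that the rule named are not reported here. Exon lengths and 50-base stretches came from GENCODE M21 (GRCm38), where 13893 of 13903 identifiers were found. Other scalings, pseudocounts, filters and thresholds were tried, and list counts under the other scalings were added after the data were seen. Steps were tested on simulated reads. Python 3.11 was used with numpy 2.4.6, pandas 2.3.3, scipy 1.17.1 and matplotlib 3.10.9.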

Additional observations from a re-analysis of the deposited data

Results flagged for a closer look

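*Srebf1* differed in opposite directions over recovery, by -0.35 in the control-labelled libraries and 0.35 in those labelled OGT-KO. The lipase gene *Pnpla2* differed between labels by 0.41 without recovery and by -0.11 after 7 days, and over recovery by 0.42 in the control-labelled libraries and -0.10 in those labelled OGT-KO. *Ogt* differed between labels by -0.22 without recovery and 0.47 after 7 days, and over recovery by -0.21 in the control-labelled libraries and 0.48 in those labelled OGT-KO. Each of these values had a counting interval that left out 0. The difference between labels turned to -0.30 for *Pnpla2* without recovery and to -0.20 for *Ogt* after 7 days with median-ratio scaling. With 1 library per condition, none of these contrasts was tested between conditions.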

How the results depend on the processing

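Of 72 recomputed counts of lipogenesis genes called, 69 lay within 1.5 times the reported count. Most of these say little. The counts of higher genes, and all counts over recovery, were 0 as reported and 0 in every setting. The counts that moved were all of genes lower between labels. The lowest mean among the 9 genes was 52.9 CPM (*Thrsp*), so no filter and a mean of at least 50 CPM could not change a count. With median-ratio scaling, 5 genes were called lower after 7 days in place of 3, *Fasn* and *Srebf1* being added. At 4-fold, 2 genes were lower without recovery in place of 4, and 1 after 7 days. A pseudocount of 10 left 3 lower without recovery, as *Srebf1* came to -0.99. All 35 recomputed values of called genes kept their sign, as did 170 of 180 values in all, the exceptions being *Me1* and *Acaca* between labels and *Thrsp* over recovery. Scaling also turned the balance of all calls. With median-ratio scaling 10.4% of compared genes were higher and 15.4% lower without recovery, and 11.6% and 11.8% after 7 days. Higher genes then made up 40.4% and 49.6% of the calls in place of 81.1% and 84.3%. With upper-quartile scaling they made up 55.2% and 62.1%, with totals that left out the 100 highest genes 70.7% and 73.4%, and at a mean of at least 50 CPM 59.9% and 64.2%. The cause was not tested. A pseudocount of 10 gave 1367 higher genes in place of 2185 without recovery and 1344 in place of 2050 after 7 days, and no filter gave 4595 and 4492. The 4-fold threshold left 691 higher genes and 164 lower without recovery, and 788 and 87 after 7 days. No paired analysis was possible because each condition has 1 library, and for the same reason no library could be left out.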

Other observations

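Among all compared genes 30.1% were called in either direction without recovery and 27.1% after 7 days. Of all compared genes 24.4% and 22.9% were higher, and 5.69% and 4.27% lower. Median-ratio scaling made these 10.4% and 11.6%, and 15.4% and 11.8%. Of 9 genes of glycerolipid synthesis compared, 2 were higher and 0 lower in the OGT-KO-labelled library without recovery, and 2 and 1 after 7 days. With median-ratio scaling 1 was higher and 4 lower, and 1 and 2 after 7 days. *Dgat2*, which makes triglyceride in the liver, had 351 and 369 CPM in the control-labelled libraries against 181 and 162, differences of -0.95 and -1.18. *Lpin3*, a phosphatidate phosphatase, was at 2.67 and 2.38 and, like *Abcg1*, *Cidec* and *Fabp4*, reached 10 CPM only through the OGT-KO-labelled libraries, and *Agpat1* at 1.08 and 1.39. Of 7 targets of the oxysterol receptor LXR, which also drives *Srebf1*, 2 were higher without recovery and 1 after 7 days, and 0 were lower. With median-ratio scaling 2 were lower without recovery (*Abca1* and *Abcg8*) and *Abcg8* after 7 days, with 1 higher at each. *Abcg1*, a sterol transporter, was at 2.00 and 2.49, and *Pltp* at 1.22 and 0.75. With median-ratio scaling *Agpat1* (0.39 and 0.73) and *Pltp* (0.52 and 0.09) were short of 2-fold. Of 11 genes of insulin signalling, none was called at either time point, with median differences of 0.14 and 0.34, and *Akt1* was at 0.79 and 0.75. Of 7 adipocyte markers, 2 were analysed here: *Cidec* had 4.80 and 4.31 CPM in the control-labelled libraries against 96.0 and 45.1, and *Fabp4* 8.19 and 5.66 against 25.6 and 18.4.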
